A study of Mus musculus with 6 samples.

Results

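Genes of the vessel wall and its main growth factor system were examined in skin tumours of male mice, 10 in all: the growth factor ligands Vegfa, Vegfb and Vegfc, their receptors Flt1, Kdr and Flt4, the ligand and receptor pair Angpt2 and Tek, and the endothelial junction genes Cdh5 and Pecam1. They were taken by gene name, with every probe that the array carries for them, which gave 10 of 37008 gene names and 21 of 56605 probes. RNA of 3 tumours labelled P2RY6-/- (KO1, KO2 and KO3) and of 3 tumours labelled P2RY6+/+ (WT1, WT2 and WT3) was measured on one-colour arrays, on which the brightness of a single dye at a probe stands for the amount of its transcript. P2RY6 is a cell surface receptor for uridine nucleotides, and the series compares tumours of mice with and without it. Both genotypes had the same two-stage skin carcinogenesis treatment, with 12 mice of each: the mutagen DMBA was put on the skin once (195 nmol in 200 µL of acetone), and the tumour promoter TPA (16 nmol) followed 2 times a week until week 22. The labels give neither the promoter or cell type of the deletion nor whether each tumour came from a separate mouse, so the p-values below measure the spread between these samples only.

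Values are log2 of the processed signal minus the 75th percentile of the same array, so 0 lies at that percentile and 1 unit is a 2-fold difference. Of all spots, 54.2% to 59.4% stood clear of background and none was saturated. The linear signal at the 75th percentile was 396 to 427 in the tumours labelled knockout and 464 to 524 in those labelled wild-type. The 2 probes for P2ry6 do not check the genotype, because it is not known that they lie in the deleted part. At the probe at chr7:108086152-108086211 the log2 signal was 0.05, 0.20 and -0.07 in the tumours labelled knockout, against -0.16, -0.18 and -0.73 in those labelled wild-type. At the probe at chr7:108112251-108112310 it was -1.47, -1.20 and -0.97, labelled knockout, against -1.47, -1.65 and -2.18, labelled wild-type. Neither probe passed the test (limma, adjusted p = 0.443 and 0.390), and neither was lower in the tumours labelled knockout, so both genotypes are called by their labels throughout.

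VEGF-A is secreted by epithelial, stromal and immune cells and drives endothelial cells to divide and migrate and vessels to leak, mainly through the receptor KDR. FLT1 binds the same ligand more tightly but signals weakly, and a soluble form of it, made from a shortened transcript, is known as a trap for the ligand. VEGF-C acts through FLT4 on lymphatic vessels, VEGF-B binds FLT1, and angiopoietin 2, released by activated endothelium, acts on the receptor TEK (also named TIE2). VE-cadherin (Cdh5) and PECAM-1 (Pecam1) hold neighbouring endothelial cells together and serve as markers of these cells.

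Genes with several probes are described with the probes numbered from the 5′ end of the gene, and positions are on mouse build mm9 as the array's files give them. For Vegfa the probe sequence decides which forms of the factor are seen, and the sequence of probe 2 is therefore shown. Probe 1 is the one nearest the 5′ end of the gene. Probe 2 (chr17:46159226-46159282, minus strand) lies in the basic segment of the longer, matrix-binding forms, with a run of 6 lysine or arginine codons in capitals.
Vegfa probe 2: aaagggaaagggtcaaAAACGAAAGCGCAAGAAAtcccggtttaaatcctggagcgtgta

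For Flt1, probes 2 and 3 carry one transcript identifier (ENSMUST00000110529) and probe 4 another (NM_010228), and the first 30 of the 60 bases of each are shown because the largest difference of all tested probes here is at probe 2. All 3 are on the minus strand of chromosome 5. Probe 3 lies 1.8 kb from probe 2, and probe 4 lies 75.1 kb further on. The files do not say which protein the first transcript encodes.
Flt1 probe 2: aggaggaatgattgtaccacacaaagtcat
Flt1 probe 3: tcctcagaacaaaacctgaactgaactgag
Flt1 probe 4: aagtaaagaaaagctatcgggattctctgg

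The single Pecam1 probe (chr11:106540864-106540923, minus strand) is shown whole, since it lies in the stretch that encodes the cytoplasmic tail and so reads only transcripts that keep it.
Pecam1 probe: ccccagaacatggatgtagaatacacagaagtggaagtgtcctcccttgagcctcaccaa

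Of the 21 probes, 13 (of 8 genes) stood well above background in all 3 tumours of one genotype or of both, and only these were tested. The other 8 were above background on no array (6 probes) or on some arrays (2 probes). None of the 13 was called at an adjusted p under 0.05 (limma, Benjamini-Hochberg over 29727 probes), where 0.151% of all probes tested were called. One, probe 2 of Flt1, had an unadjusted p under 0.05, where 12.9% of all probes tested did and 8.31% did with a higher signal in the tumours labelled knockout, as here. In 7 of the 13 the mean was higher in the tumours labelled knockout, in 6 it was lower, and in none did the 2 genotypes fail to overlap, where 19.2% of all probes tested did not overlap. The median difference of the 13 was 0.09 log2, against 0.04 over all probes tested. Their 95% intervals reached a median of 0.57 log2 to each side and together ran from -1.16 to 1.78. In simulated arrays of this design 14 of 50 changes of 2-fold and 37 of 50 of 4-fold passed the same test, so smaller differences were mostly not detectable with 3 samples a genotype.

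**Figure D1:**
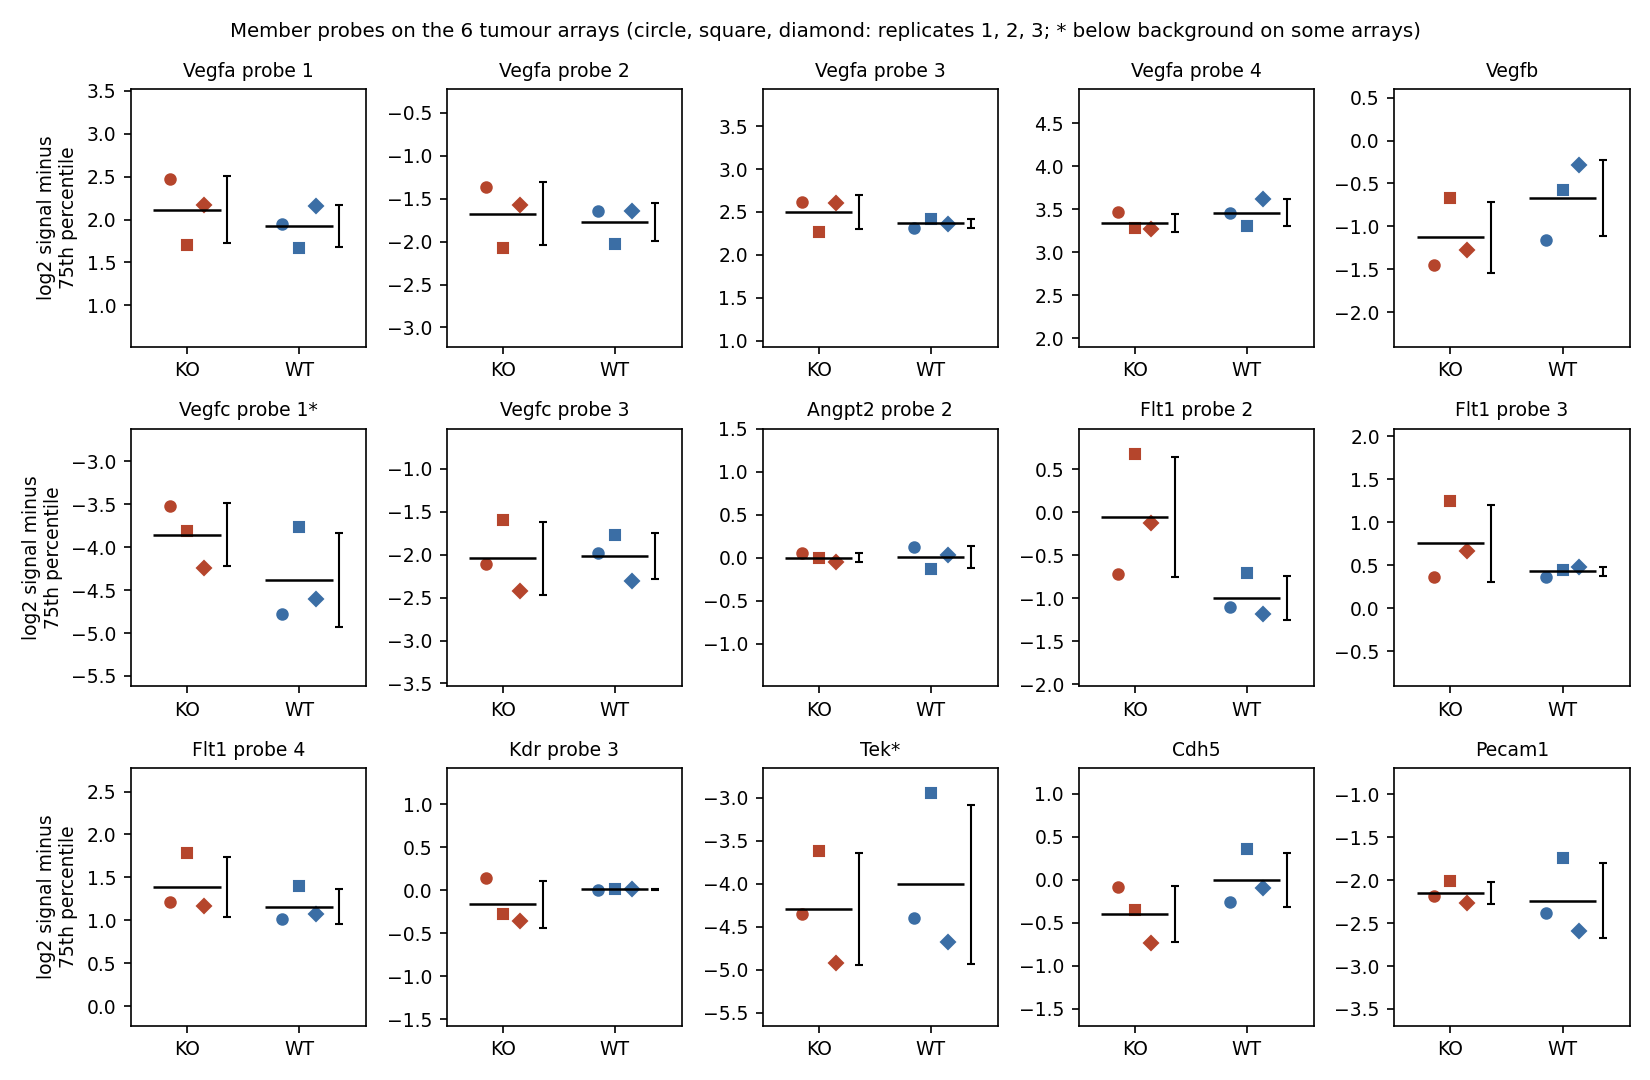
Log2 signal minus the array's 75th percentile (y axis) of each Vegfa, Vegfb, Vegfc, Angpt2, Flt1, Kdr, Tek, Cdh5 and Pecam1 probe that was above background on at least 1 array, in the 3 tumours labelled knockout (left in each panel) and the 3 labelled wild-type (right). Each point is 1 tumour, the horizontal line is the mean and the bar beside it 1 SD either way (n = 3). No panel shows the 2 genotypes fully apart, and the widest spreads are at Flt1 probe 2 and Tek.

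Vegfa was above background in all 6 tumours at each of its 4 probes, and at none of them did the difference between genotypes pass the test. At probe 1 the log2 signal was 2.47, 1.70 and 2.17 in the tumours labelled knockout, against 1.95, 1.67 and 2.16 in those labelled wild-type. KO1 was the highest tumour and WT2 the lowest, and the genotypes overlapped, with a difference of 0.19 log2 (SE 0.24, 95% interval -0.38 to 0.77, adjusted p = 0.781 by limma, n = 3 each). At probe 2, in the basic segment, the values were -1.37, -2.08 and -1.58 with the knockout label, against -1.64, -2.03 and -1.64 with the wild-type label, a difference of 0.10 (interval -0.45 to 0.64, adjusted p = 0.895 by limma). KO2 and WT2 were the 2 lowest tumours at probe 2 and also at probe 1.

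The other pair of Vegfa probes lies towards the 3′ end. Probe 3 (chr17:46155512-46155571) read 2.61, 2.27 and 2.61 in the tumours labelled knockout, against 2.32, 2.42 and 2.36 in those labelled wild-type, a difference of 0.13 (interval -0.25 to 0.51). Probe 4 (chr17:46154387-46154446) read 3.46, 3.28 and 3.27 labelled knockout, against 3.46, 3.30 and 3.63 labelled wild-type, a difference of -0.12 (interval -0.50 to 0.25). The difference took opposite signs at the 2 probes and passed the test at neither (adjusted p = 0.773 and 0.787 by limma). The intervals of all 4 Vegfa probes exclude a 2-fold difference in either direction. Within an array, the log2 ratio of probe 1 to probe 2, the basic-segment probe, was 3.84, 3.78 and 3.75 in the tumours labelled knockout, against 3.59, 3.70 and 3.80 in those labelled wild-type (difference 0.10, exact two-sided permutation p = 0.3, 0.54 after adjustment over 9 probe pairs of Vegfa and Flt1). This ratio overlapped between the genotypes, as did those of the other 5 Vegfa pairs, with differences of -0.04 to 0.32 and exact p of 0.2 to 0.9.

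Vegfb, whose product binds FLT1 but not KDR, had the largest negative difference of the 13 probes. Its probe (chr19:7057245-7057304) read -1.45, -0.67 and -1.27 in the tumours labelled knockout, against -1.16, -0.57 and -0.29 in those labelled wild-type. The mean was -1.13 ± 0.41 in the tumours labelled knockout and -0.67 ± 0.44 in those labelled wild-type (SD, n = 3 each), which is 1.37-fold lower with the knockout label. KO2 lay above WT1, and the difference of -0.46 (SE 0.30, interval -1.16 to 0.25) had an adjusted p of 0.564 by limma. Over the 6 tumours the profile most like that of Vegfb belonged to Hsph1, a heat shock chaperone. Its root mean square difference from Vegfb was 0.070 log2 after both were centred, followed by Etv3 at 0.11 and Klhdc8b at 0.126 among 14242 genes.

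Vegfc, the lymphatic growth factor, was measured at its 3′ probe (chr8:55271533-55271592). That probe read -2.11, -1.59 and -2.43 in the tumours labelled knockout, against -1.98, -1.78 and -2.30 in those labelled wild-type. The difference was -0.03 (interval -0.64 to 0.58, adjusted p = 0.978 by limma), with KO2 the highest tumour and KO3 the lowest. The probe across a splice junction (chr8:55163262-55271349) was above background in 2 of 3 tumours labelled knockout and 1 of 3 labelled wild-type and was not tested. The probe at chr8:55244696-55244755 was above background on no array.

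Angpt2, the angiopoietin of sprouting endothelium, had nearly the same signal in all 6 tumours. Probe 2 (chr8:18690323-18690382) read 0.06, -0.00 and -0.05 in the tumours labelled knockout, against 0.12, -0.13 and 0.03 in those labelled wild-type. Its whole range over the 6 was 0.255 log2, the smallest of the 13 probes, and the interval of the difference ran from -0.36 to 0.34 around -0.01 (adjusted p = 0.990 by limma). The other Angpt2 probe (chr8:18699153-18699460) was above background on no array.

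**Figure D2:**
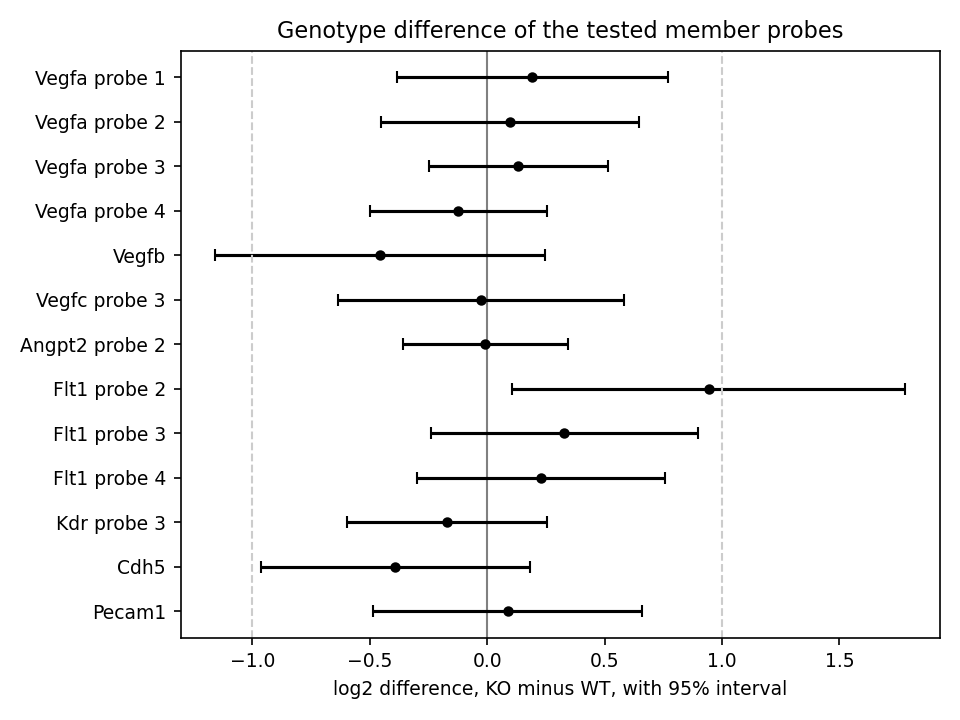
Log2 difference, tumours labelled knockout minus those labelled wild-type (x axis), for each of the 13 tested probes, with its 95% interval (bars, n = 3 each). All intervals but that of Flt1 probe 2 include 0, and that probe's adjusted p was 0.343.

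Among the receptors, Flt1 had the largest difference of the 13 probes. Probe 2 (chr5:148450688-148450747) read -0.71, 0.68 and -0.12 in the tumours labelled knockout, against -1.10, -0.70 and -1.18 in those labelled wild-type. KO2 and KO3 lay above all tumours labelled wild-type and KO1 lay just below WT2. The mean was -0.05 ± 0.70 labelled knockout and -0.99 ± 0.26 labelled wild-type (SD, n = 3 each), a 1.92-fold higher signal with the knockout label (difference 0.94, SE 0.35, interval 0.10 to 1.78). It did not pass the threshold, with p = 0.0325 before and 0.343 after adjustment in limma, and an exact two-sided permutation test gave p = 0.2. Without KO2 the difference was 0.58.

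The other Flt1 probes had smaller differences of the same sign. Probe 3 (chr5:148448888-148448947) read 0.36, 1.24 and 0.66 in the tumours labelled knockout, against 0.37, 0.44 and 0.47 in those labelled wild-type (difference 0.33, interval -0.24 to 0.90, adjusted p = 0.607 by limma). Probe 4 (chr5:148373791-148373850), of the other transcript, read 1.21, 1.79 and 1.16 labelled knockout, against 1.01, 1.40 and 1.07 labelled wild-type (difference 0.23, interval -0.30 to 0.76, adjusted p = 0.708 by limma). KO2 was the highest tumour at all 3 probes. The probe nearest the 5′ end of the gene (chr5:148465976-148466035) was above background on no array.

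Whether the Flt1 probes moved by unequal amounts was examined as ratios within an array, after the values of the probes had been seen. The log2 ratio of probe 2 to probe 4 was -1.93, -1.11 and -1.29 in the tumours labelled knockout, against -2.11, -2.10 and -2.25 in those labelled wild-type. The genotypes did not overlap, with means of -1.44 ± 0.43 labelled knockout and -2.15 ± 0.08 labelled wild-type (SD, n = 3 each) and a difference of 0.71. The exact two-sided permutation p was 0.1, the smallest that 3 against 3 samples can give, and 0.45 after adjustment over the 9 pairs. The ratio of probe 2 to probe 3, which carry the same transcript identifier, also did not overlap: it was -1.08, -0.56 and -0.79 labelled knockout, against -1.47, -1.14 and -1.65 labelled wild-type (exact two-sided permutation p = 0.1, adjusted 0.45). Probe 2 stands in both of these ratios, so they are not 2 separate results. The ratio of probe 3 to probe 4 overlapped, with a difference of 0.10 (exact two-sided permutation p = 0.5, adjusted 0.64).

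**Figure D3:**
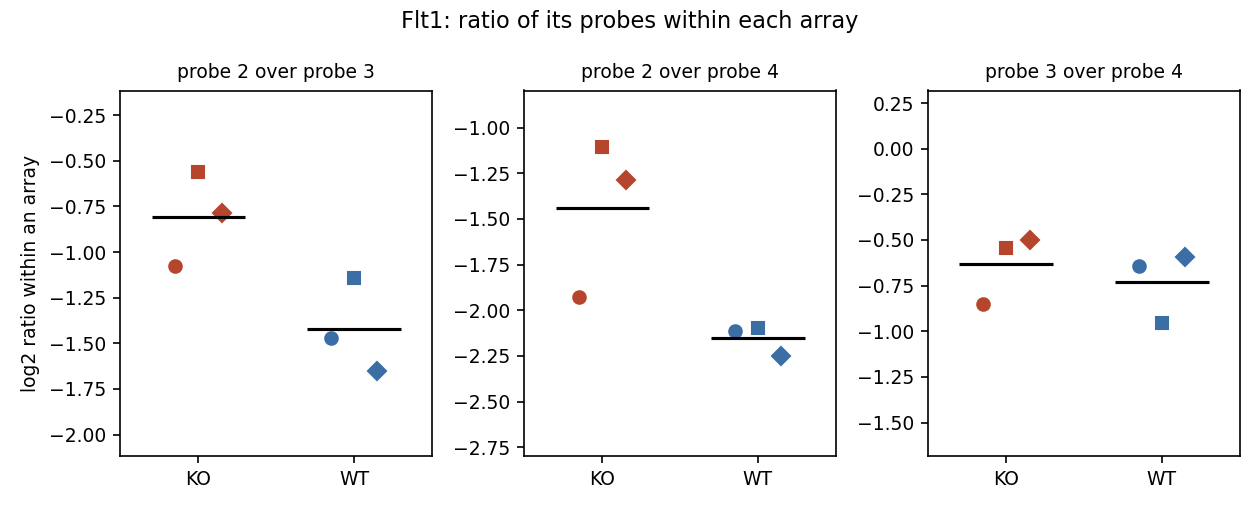
Log2 ratio of 2 Flt1 probes on the same array (y axis) in tumours labelled knockout (left) and labelled wild-type (right), 1 point per tumour. The ratios of probe 2 to probe 3 and of probe 2 to probe 4 do not overlap between genotypes, and that of probe 3 to probe 4 does.

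Kdr, the main signalling receptor for VEGF-A on blood endothelium, was measured at its probe 3 (chr5:76329309-76329368). It read 0.15, -0.28 and -0.35 in the tumours labelled knockout, against 0.01, 0.01 and 0.01 in those labelled wild-type. The wild-type values lay within the spread of the knockout values, and the difference was -0.17 (interval -0.60 to 0.25, adjusted p = 0.731 by limma). The other Kdr probes (chr5:76357639-76357698 and chr5:76353385-76353444) were above background on no array. Flt4, the VEGF-C receptor of lymphatic endothelium, was also above background on none of the 6 arrays at its only probe (chr11:49465646-49465705), so nothing is known of its difference here. Tek, the angiopoietin receptor, was measured near background at chr4:94540861-94540919. It read -4.35, -3.62 and -4.92 in the tumours labelled knockout, of which only KO2 was above background, against -4.40, -2.95 and -4.68 in those labelled wild-type, of which WT1 and WT2 were, and it was not tested.

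The junction genes did not separate the genotypes. Cdh5 (chr8:106668159-106668218), the adhesion protein of endothelial junctions, read -0.09, -0.35 and -0.74 in the tumours labelled knockout, against -0.26, 0.35 and -0.10 in those labelled wild-type. WT2 was the highest tumour and KO3 the lowest, and the difference of -0.39 (SE 0.24, interval -0.96 to 0.18, adjusted p = 0.545 by limma) became -0.21 without WT2 and -0.22 without KO3. Pecam1 read -2.18, -2.01 and -2.26 labelled knockout, against -2.38, -1.74 and -2.59 labelled wild-type, with the 3 tumours labelled knockout inside the range of the others. Its difference was 0.09 (interval -0.49 to 0.66, adjusted p = 0.912 by limma). These are whole tumours, in which fewer endothelial cells and less RNA per cell cannot be told apart.

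The profile of Cdh5 over the 6 tumours was most like that of Ptprb, the endothelial phosphatase that acts on VE-cadherin and TEK. The root mean square difference was 0.063 log2 over 6 arrays, followed by Prnd at 0.070 and Cdc42ep2 at 0.083 among 14242 genes. Ptprb itself read 0.68, 0.37 and -0.00 in the tumours labelled knockout, against 0.45, 0.94 and 0.53 in those labelled wild-type (difference -0.29, adjusted p = 0.639 by limma).

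All 6 arrays were on 1 slide in 1 scan, and the headers number each array's place on it. KO1, KO2 and WT2 shared the first place number 1 and KO3, WT1 and WT3 shared 2. Within these sets, Flt1 probe 2 differed by 0.69 and 1.02, Vegfb by -0.48 and -0.55 and Cdh5 by -0.57 and -0.56 log2, labelled knockout minus labelled wild-type. Pecam1 differed by -0.35 and 0.22 and Vegfa probe 4 by 0.07 and -0.27, opposite in sign. The second place number nearly follows the genotype, and its effect and that of the genotype cannot be told apart.

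Further genes of the vessel wall were taken as lists, each gene by its brightest probe. Of 36 other endothelial identity and junction genes, 35 were tested, 33 were lower and 2 higher in the tumours labelled knockout, with a median difference of -0.25, where 45.2% of all probes tested were lower and the median was 0.04. None was called, and 2 had an unadjusted p under 0.05, both lower, where 4.64% of all probes were. Erg, an endothelial transcription factor, read -3.78, -4.18 and -4.24 labelled knockout, against -3.43, -3.61 and -3.61 labelled wild-type (difference -0.52, SE 0.18, adjusted p = 0.314 by limma), without overlap, where 6.48% of all probes did not overlap and were lower, but the difference was -0.044 with normexp background correction (adjusted p = 0.873 by limma). Esm1, a secreted product of VEGF-stimulated tip cells, differed by -1.14 (SE 0.45, adjusted p = 0.360 by limma), Cd93 by -0.54 and Gja5 by -0.63, the last with 0.52 at another probe.

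The endothelial count rested on 2 tumours. WT2 was the highest tumour for 28 of the 35 genes, which is 80.0% against 14.8% of all probes, and KO3 was the lowest for 26, which is 74.3% against 12.6% of all probes. Without WT2, 18 of 35 were lower, with a median of -0.04, where 48.4% of all probes were lower. Without KO3, 23 of 35 were lower, with a median of -0.11, and without any 1 of the other 4 tumours, 32 or 33 were. Averaged over its genes, the list stood at -0.38, -0.63 and -0.97 in the tumours labelled knockout, against -0.47, -0.09 and -0.57 in those labelled wild-type. WT2 was also the highest of the 6 tumours for Cdh5, Pecam1 and Tek. Of 10 lymphatic genes 8 were tested, 6 were lower and none was called (limma), where 45.2% of all probes were lower. There were 2 with an unadjusted p under 0.05, both lower, where 4.64% of all probes were. The median of -0.23 became 0.10 without WT2, 0.10 without KO3 and -0.68 without WT3. The lymphatic transcription factor gene Foxc2 differed by -2.32 (SE 0.81, adjusted p = 0.318 by limma), but was above background in 1 of 3 tumours labelled knockout, and Mmrn1 by -0.91 (SE 0.37, adjusted p = 0.374 by limma).

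Of 15 genes of pericytes and vascular smooth muscle, the cells that wrap the endothelium, 14 were tested, 12 were lower and 2 higher with the knockout label, and none was called. The median was -0.30, and 6 had an unadjusted p under 0.05, of which 5 were lower, where 12.9% of all probes did and 4.64% were lower. Among the 5 was Myh11, which differed by -0.95 at its brightest probe but by -1.45 and 0.07 at its other tested probes. Tagln, a contractile protein of smooth muscle, read 2.53, 1.86 and 1.86 in the tumours labelled knockout, against 3.59, 3.10 and 3.13 in those labelled wild-type (difference -1.19, SE 0.25, adjusted p = 0.178 by limma). Cnn1, the smooth muscle protein calponin, read -0.95, -3.09 and -1.96 labelled knockout, against 0.18, -0.31 and 0.11 labelled wild-type (difference -1.99, SE 0.50, adjusted p = 0.226 by limma). Of the 14 genes 5 did not overlap between genotypes, where 19.2% of all probes did not. Tagln and Cnn1 were among them, as were Abcc9 (-0.87), a channel subunit of pericytes, and Ndufa4l2 (0.65), which was higher. Averaged over its genes, the list stood at 1.03, 0.76 and 0.53 in the tumours labelled knockout, against 1.35, 1.29 and 1.16 in those labelled wild-type. Leaving out 1 tumour gave 9 to 13 of 14 lower, with medians of -0.57 to -0.25 (-0.57 without WT2, -0.51 without KO1).

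Of 13 other ligands and receptors of the VEGF, angiopoietin, apelin and ephrin systems, 12 were tested, 9 were lower and 3 higher with the knockout label (median -0.18). None was called (limma), and 3 had an unadjusted p under 0.05, of which 2 were higher, where 12.9% of all probes did and 8.31% were higher. Apln, the peptide apelin of sprouting endothelium, read -0.55, -1.14 and -1.41 in the tumours labelled knockout, against -0.06, 0.12 and 0.69 in those labelled wild-type. The genotypes did not overlap, and the difference was -1.28 (SE 0.29, adjusted p = 0.193 by limma). Ephb4, the venous ephrin receptor, read 1.92, 2.30 and 2.25 labelled knockout, against 1.31, 1.48 and 1.70 labelled wild-type (difference 0.66, SE 0.18, adjusted p = 0.250 by limma), but another of its probes differed by -0.38. Angpt4 differed by 0.74 and Angptl4 by -0.76, both with overlap. The probe named Angpt4 is placed at chr14:44540600-44540659, and whether it reads that gene was not tested. It is among the 2 higher genes with an unadjusted p under 0.05. Without WT2 the median of the list was -0.08, with 7 of 12 lower, and without KO1 it was -0.29.

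Of 15 genes induced by VEGF or typical of tip cells, some of which stand in the lists above, 14 were tested, 10 were lower and 4 higher with the knockout label (median -0.27). None was called (limma), and 3 had an unadjusted p under 0.05, all lower, where 4.64% of all probes did and were lower. Leaving out 1 tumour gave 8 to 11 of 14 lower (8 without WT2), with medians of -0.33 to -0.16 (-0.16 without WT3, -0.17 without KO3). Unc5b, a netrin receptor of tip cells, read 0.39, 0.67 and 0.19 in the tumours labelled knockout, against 0.95, 1.42 and 1.59 in those labelled wild-type (difference -0.90, SE 0.23, adjusted p = 0.225 by limma), without overlap and with -0.96 at a second probe. Dll4, the Notch ligand of tip cells, was not well above background in any tumour labelled knockout. It read -4.47, -4.86 and -4.61 there, against -4.50, -4.35 and -4.27 in the tumours labelled wild-type. The genotypes overlapped, with a difference of -0.27 (interval -0.67 to 0.13, adjusted p = 0.545 by limma), which was 0.092 with normexp background correction. Of 12 secreted inhibitors of angiogenesis 9 were tested, 8 were higher and 1 lower, and none was called (limma, median 0.08, 1 with an unadjusted p under 0.05, which was higher). Over all probes tested 54.8% were higher, and 8.31% were higher with such a p. Without KO3 or without WT3, 5 of 9 were higher, and the median was 0.01 without KO3 and 0.26 without KO1. With the first slide place number 1, 4 of 9 were higher, and with 2, 8 of 9 were. The probe used for Vash1 is placed at chr19:26896324-26896383, and whether it reads that gene was not tested. The probes named Vash1 differed by 0.07 to 0.80. Cxcl10, an interferon-induced chemokine, read 0.35, -1.43 and -1.35 labelled knockout, against -2.73, -1.96 and -3.48 labelled wild-type (difference 1.91, SE 0.57, adjusted p = 0.270 by limma), without overlap. Timp3 differed by -0.89 and Thbs2 by 0.38, both with overlap.

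Hypoxia is the best known inducer of Vegfa, and 18 other genes of the hypoxia response were all tested. With the knockout label 15 were higher and 3 lower, with a median of 0.20, where 54.8% of all probes were higher. None was called (limma), and 5 had an unadjusted p under 0.05, of which 4 were higher, where 12.9% of all probes did and 8.31% were higher. Egln3, an oxygen-sensing hydroxylase, read 4.42, 5.07 and 4.72 in the tumours labelled knockout, against 3.30, 3.93 and 3.73 in those labelled wild-type (difference 1.08, SE 0.24, adjusted p = 0.192 by limma). Slc2a1, the glucose transporter GLUT1, differed by 0.77 (adjusted p = 0.245 by limma) and Bnip3, a mitophagy receptor, by 0.45 (adjusted p = 0.313 by limma), all 3 without overlap. Car9, the cell surface carbonic anhydrase, lay the other way, at -0.23, 0.18 and 0.15 labelled knockout, against 0.39, 1.51 and 1.26 labelled wild-type (difference -1.02, adjusted p = 0.275 by limma), without overlap and with -1.03 at its second probe. In all, 6 of the 18 genes did not overlap between genotypes, where 19.2% of all probes did not. Pdk1 (0.39) and Pgk1 (-0.16) were also among the 6, and another Pgk1 probe differed by 0.17. Without WT2, 13 of the 18 were higher, with a median of 0.05, and without WT3 the median was 0.35. At Vegfa, as given above, the sign of the difference varied with the probe.

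**Figure D4:**
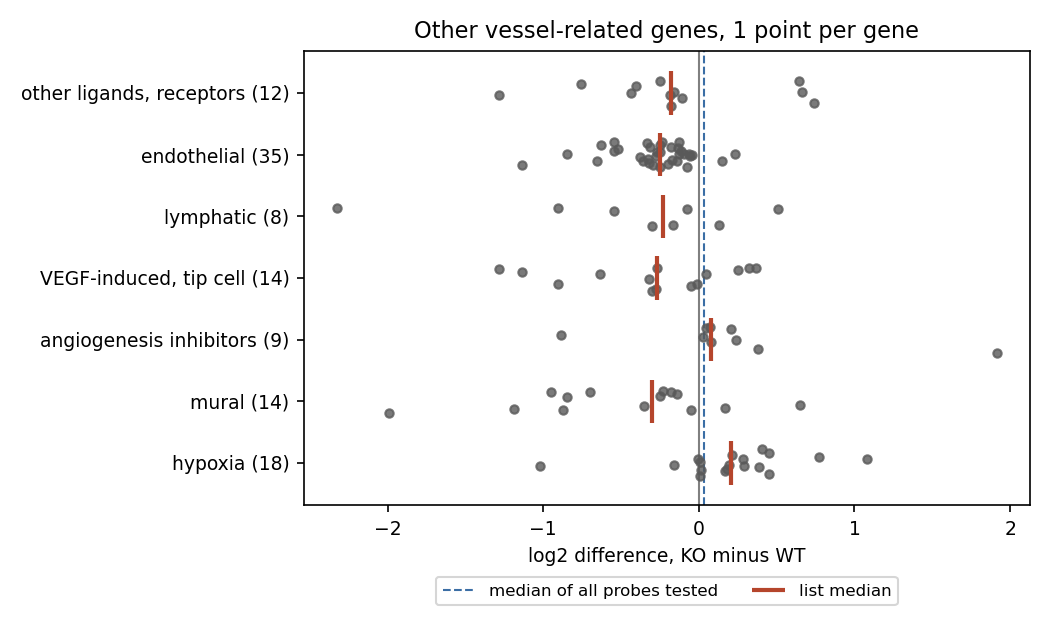
Log2 difference, tumours labelled knockout minus those labelled wild-type (x axis), of each tested gene in the lists of vessel-related genes (rows), 1 point per gene. The endothelial points lie mostly left of 0 (33 of 35) and the hypoxia points mostly right of it (15 of 18), and no point in these lists was called.

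Markers of other cell types were measured on the same arrays. Over all probes tested, 45.2% were lower with the knockout label and 0.151% were called. Of 18 skeletal muscle genes 16 were tested. All 16 were lower with the knockout label, 2 of them called (Myh4 and Myh8). Their mean level was -4.42, -4.60 and -4.26 in the tumours labelled knockout, against -1.27, 3.19 and 0.07 in those labelled wild-type. Of 13 adipocyte genes 12 were tested and 10 were lower, 3 of them called (Adipoq, Cfd and Car3), with means of -1.95, -2.27 and -2.02 labelled knockout, against 0.66, 1.45 and 0.20 labelled wild-type. WT2, the tumour that was highest for Cdh5, Pecam1, Tek and most of the endothelial list, had the highest mean of both lists. In all 3 tumours labelled knockout Myh4, Myh8, Adipoq, Cfd and Car3 were not above background. The same held for Actn3, Ckm, Myh2, Tnnc2, Myl1 and Mb of muscle and Retn of adipocytes. All of these passed the filter only through the tumours labelled wild-type, so their lower direction was nearly set in advance. None of the 5 called genes was tested when probes had to be above background on all 6 arrays. Myh4, a fast muscle myosin, was at least 94.8-fold lower with the knockout label than with the wild-type label (adjusted p = 0.0102 by limma). Another Myh4 probe differed by 0.25 log2. Adipoq, which encodes a hormone of fat cells, was at least 5.38-fold lower (limma, adjusted p = 0.00748). With normexp background correction only Cfd of the 5 stayed called, at an adjusted p of 0.0343 (limma), against 0.0940 for Myh4, 0.130 for Myh8, 0.130 for Adipoq and 0.142 for Car3. Cfd in turn lost its call with the replicate block (adjusted p = 0.0640 by limma).

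The summed linear signal of the muscle list, in log2, was 1.40 to 2.65 in the tumours labelled knockout, against 3.94 to 8.08 in those labelled wild-type, and that of the adipocyte list was 7.07 to 8.42 labelled knockout, against 7.83 to 8.52 labelled wild-type. Most of the adipocyte sum was Fabp4 alone (6.93 to 8.33 labelled knockout, 7.63 to 8.39 labelled wild-type). Most of the muscle sum labelled knockout was Tnni2 (0.70 to 2.35). Of 16 leukocyte genes 13 were tested and all were higher with the knockout label, none called but 3 with an unadjusted p under 0.05 (median 0.43, summed signal 7.82 to 8.13 labelled knockout against 6.67 to 7.63 labelled wild-type). Over all probes tested 54.8% were higher, and 8.31% were higher with such a p. Without KO2 or without WT3, 11 of the 13 were higher, and within the first slide place number 10 were. Most of the leukocyte sum was S100a8 alone (7.62 to 7.94 labelled knockout, 6.32 to 7.41 labelled wild-type). Of 8 platelet genes 5 were tested, 4 lower and none called, 1 with an unadjusted p under 0.05 (summed signal 0.38 to 2.49 labelled knockout against 1.24 to 2.39 labelled wild-type). That gene, Pf4, was lower. Over all probes tested 45.2% were lower, and 4.64% were lower with such a p. Of 12 keratinocyte genes 7 were higher and 5 lower, none called, 1 with an unadjusted p under 0.05 (summed signal 11.98 to 12.03 labelled knockout against 11.81 to 11.85 labelled wild-type). The 7 of 12, and the 1, which was higher, lie near the 54.8% and 8.31% of all probes. Of 10 fibroblast genes 8 were higher and 2 lower, none called, 1 with an unadjusted p under 0.05 (summed signal 7.66 to 8.86 labelled knockout against 6.63 to 8.28 labelled wild-type), and without WT3 5 of 10 were higher. The 1 was Fap, which was lower, where 4.64% of all probes were lower with such a p. The part of these cell types in the values of the 10 genes was not tested.

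**Figure D5:**
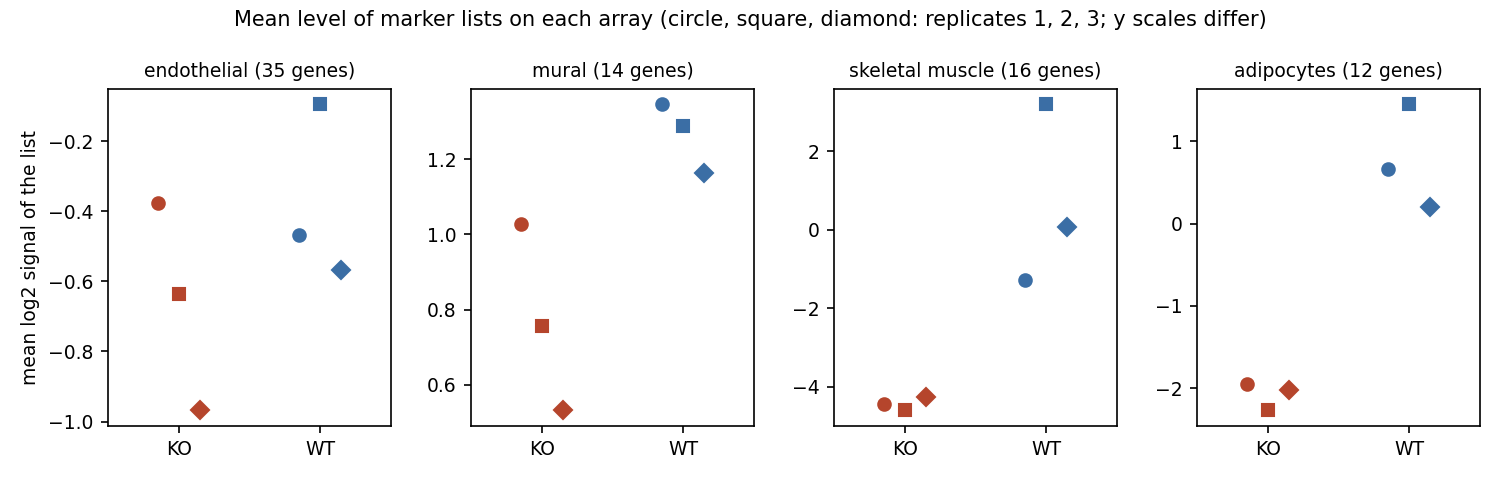
Mean log2 signal of the tested genes of several marker lists (y axis, scales differ between panels) in the tumours labelled knockout (left) and labelled wild-type (right), 1 point per tumour. WT2 is the highest tumour in the endothelial, muscle and adipocyte panels, and KO3 is the lowest in the endothelial panel and in that of pericytes and vascular smooth muscle (mural).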

How the data were processed

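RNA of 6 skin tumours, 3 of each labelled genotype, was measured on Agilent arrays. The authors deposited each spot's intensity, linear and background-subtracted per the file headers. Per the submitters' processing notes, Agilent Feature Extraction 10.7.1.1 was used. A table of log2 values was also deposited by the authors (r with each array's own signal 0.99945 to 0.99997, median 4.969); what made it is not stated in the sources used here.

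Each array's processed signal was put on the log2 scale and its 75th percentile, taken over probes that are not controls, was subtracted. Spots with outlier flags (68 to 184 of 62976) were dropped, and replicate spots averaged. A probe was tested if well above background on all arrays of a genotype (29727 of 56605). Genotypes were compared per probe with limma 3.58.1 in R 4.3.3 (with data.table in version 1.17.8), labelled knockout minus labelled wild-type, two-sided, Benjamini-Hochberg adjusted, threshold 0.05, with an exact permutation test over samples beside it. Where a genotype was below background, a fold, if given, is "at least": the brighter mean against, per array, the higher of the probe's signal and the lowest signal well above background.

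Named were all probes of the 10 genes, P2ry6, up to 4 genes per list with the smallest p, and the 3 genes nearest in profile to Vegfb and Cdh5, the members that were above background on all arrays at their brightest probe and spanned at least 1 log2 unit there. The members and the 13 lists (189 genes, all on the array) were chosen with earlier results of these data known. Gene names came from RefSeq (assembly GRCm38.p6; 32994 probes by accession, 10224 by symbol, 520 by synonym), and 12867 probes kept the file's name. Several lists share genes. Further list genes were named where they limit what a list shows. The sequence of Vegfa probe 1 is not reported here. In simulated data of 29722 probes the test recovered 14 of 50 changes of 2-fold, 37 of 50 of 4-fold, 46 of 50 of 8-fold and 49 of 50 of 16-fold, with 7 false calls. The number of arrays limits the precision. Alternatives were the background correction, the scaling, the filter on dim probes, the statistics, the deposited table, the replicate block and leaving out each tumour; slide position and the list counts without each tumour were added after seeing the data.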

Additional observations from a re-analysis of the deposited data

How the results depend on the processing

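None of the 13 tested probes of the 10 genes was called under any setting tried, and the smallest adjusted p was 0.168 (limma, Flt1 probe 2 with array weights). At an unadjusted p under 0.05 there was 1, but 0 with 1 probe per gene, which leaves out Flt1 probe 2, and 0 to 1 when a tumour was left out. Over the whole array 45 probes were called. Normexp gave 14, testing every probe 21, testing only those above background on 6 of 6 arrays 6, array weights 144 and leaving out a tumour 15 to 233 (23 without KO1, 18 without KO2, 15 without KO3, 233 without WT2, 71 without WT3). The share of calls that were higher was 40.0%, against 50% with normexp, 66.7% with only those above background on 6 of 6 arrays, 57.6% with array weights, 28.6% with slide position as a block and 20.0% to 60.5% when a tumour was left out (lowest without KO3 or WT1, highest without WT2). Probes that had an unadjusted p under 0.05 and differed 2-fold or more numbered 1172, against 456 with normexp, 1885 with every probe tested, 733 with only those above background on every array and 1129 to 1711 without a tumour. The filters change the number of probes tested; otherwise the cause was not tested.

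Of the 13 probes 4 changed sign, each with a difference of at most 0.10 in size as reported. Vegfc was 0.053 with normexp and -0.25 to 0.17 when a tumour was left out, Angpt2 was 0.014 with slide position as a block and -0.078 to 0.050, Pecam1 was -0.066 with slide position as a block and -0.090 to 0.33, and Vegfa probe 2 was -0.057 to 0.30. Among the listed genes, normexp brought Dll4 to 0.092, Erg to -0.044, Gja5 to -0.32, Foxc2 to -0.79, Mmrn1 to -0.46 and Adipoq to -1.28, and leaving out a tumour gave -0.30 to 1.098 for Pdpn (lowest without WT3) and -0.013 to 0.455 for Gp1bb. Flt1 probe 2 stayed at 0.58 to 1.27, Vegfb at -0.70 to -0.26 and Cdh5 at -0.54 to -0.21. The median of all probes was 0.04, and 0.20 with every probe tested.

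Replicate numbers gave correlations of deviations of 0.096, 0.245 and 0.143 for numbers 1, 2 and 3. The labels do not say whether tumours with the same number share anything more. Without values for unlike numbers beside them, these correlations cannot decide it. With the replicate block 13 probes were called in place of 45, and none of the 13 probes of the 10 genes was. Myh4 lost its call without any 1 of KO1 to KO3, Myh8 also without WT3, with every probe tested and with either block, and Car3 without KO1, KO2, KO3 or WT1, with every probe tested and with the replicate block.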
